A study of Mus musculus with 2 samples.

Results

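The 10 genes described here are Slc2a1, Slc2a3, Hk2, Aldoa, Pgk1, Eno1, Pkm, Ldha, Pdk1 and Bnip3, chosen by name from the 32285 genes of both count matrices. Their levels were read in 4 classes of cells from the mouse peripheral retina at stage E13.5: ciliary margin zone-like (CMZ-like), neurogenic-like, retinal ganglion cell-like (RGC-like) and retinal progenitor cell-like (RPC-like) cells. There were 2 single-cell libraries. For strain, the albino library is labelled Swizz ICR and the pigmented one Tyrc2j. Both came from a-Cre;Td embryos, in which the α-Cre transgene, known to be active in the peripheral retina, switches on TdTomato, and in both the TdTomato-positive cells were sorted after pooling 3 embryos. The c2j allele of Tyr is known as an albino allele, so the strain label of the pigmented library goes against its title, and the groups follow the titles. With 1 library per group, pigmentation cannot be told apart from strain, embryo pool, library or the sex makeup of the pool, and no test between groups was possible.

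The albino library held 46271969 unique molecular identifiers (UMIs, each counted once per captured RNA molecule) in 3676 barcodes, and the pigmented library 69965728 UMIs in 6089 barcodes. After filtering, 3457 albino cells (median 11175 UMIs) and 5737 pigmented cells (median 10340 UMIs) were kept. Barcode sequences found in both libraries numbered 8. In the albino library 96% of cells had Xist and no Y-linked UMI, and in the pigmented library 29.2%. The classes held 376 albino and 858 pigmented CMZ-like cells, 685 and 1233 neurogenic-like cells, 687 and 554 RGC-like cells, and 1059 and 2011 RPC-like cells. The classes were named by marker lists, so the marker sums below describe the classes and do not test the names. The 12 RGC markers summed to 20091 CPM (counts per 1000000 UMIs of the class) in albino and 18833 CPM in pigmented RGC-like cells, against 150 and 125 CPM in RPC-like cells. The 9 measured CMZ markers summed to 1043 CPM in albino and 1252 CPM in pigmented CMZ-like cells, against 306 and 299 CPM in RPC-like cells. CMZ-like cells also carried the RPC markers, at 3660 CPM in the albino and 3434 CPM in the pigmented library. RPC-like cells had 6452 and 6664 CPM of them. The part of this overlap in the ratios of CMZ-like to RPC-like cells was not tested. Levels below are in CPM per class and library, with exact Poisson 95% intervals; ratios carry exact conditional 95% intervals, and all of these cover counting error only. A level at least 25% above or at least 20% below the one it is set against is counted as past the fold.

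Glycolysis splits glucose into pyruvate in the cytosol, and cells that turn most of that pyruvate into lactate regenerate the cofactor that the pathway consumes. Glucose enters through transporters, is trapped by hexokinase, and is passed down a chain of enzymes whose genes are known targets of the hypoxia-inducible factors (HIFs), which accumulate when oxygen is low. The embryonic retina has no vessels of its own yet, and its proliferating progenitors are known to rely on glycolysis, while its neurons are known to use more oxidative metabolism.

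Promoter sequences were matched in the RefSeq table (build GRCm38.p6) for 9 of the 10 genes, all but Slc2a3. The 4 windows printed are those of Slc2a1 and Hk2, which were lower in RGC-like than RPC-like cells, of Bnip3, which was higher there, and of Ldha, which was lower in all 3 other classes than in RPC-like cells. They run 5′ to 3′ on the strand of the gene, from 250 bases before to 50 after the annotated start. Capitals mark ACGTG or GCGTG on either strand (CACGT or CACGC as read here), the core letters of the HIF response element; the 2 orientations overlap in CACGTG. The windows are chr4:119108495-119108794 on the plus strand for Slc2a1, chr6:82774405-82774704 on the minus strand for Hk2, chr7:46845554-46845853 on the plus strand for Ldha and chr7:138909457-138909756 on the minus strand for Bnip3.
Slc2a1: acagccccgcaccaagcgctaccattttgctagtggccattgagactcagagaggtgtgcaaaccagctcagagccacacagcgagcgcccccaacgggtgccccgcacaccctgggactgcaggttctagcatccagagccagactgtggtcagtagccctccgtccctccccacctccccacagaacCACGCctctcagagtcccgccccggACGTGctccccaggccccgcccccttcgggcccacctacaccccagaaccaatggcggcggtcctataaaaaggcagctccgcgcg
Hk2: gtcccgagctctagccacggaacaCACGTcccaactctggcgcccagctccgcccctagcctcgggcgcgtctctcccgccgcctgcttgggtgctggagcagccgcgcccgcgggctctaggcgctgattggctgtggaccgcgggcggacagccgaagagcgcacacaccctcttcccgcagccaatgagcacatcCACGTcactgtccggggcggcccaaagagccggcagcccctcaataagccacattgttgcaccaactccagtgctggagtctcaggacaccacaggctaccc
Ldha: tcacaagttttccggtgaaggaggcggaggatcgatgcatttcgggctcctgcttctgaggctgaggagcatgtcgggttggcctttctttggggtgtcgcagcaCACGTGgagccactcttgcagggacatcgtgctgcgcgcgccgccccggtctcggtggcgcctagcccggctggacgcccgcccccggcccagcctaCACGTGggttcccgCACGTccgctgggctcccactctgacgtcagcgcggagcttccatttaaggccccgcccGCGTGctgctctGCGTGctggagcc
Bnip3: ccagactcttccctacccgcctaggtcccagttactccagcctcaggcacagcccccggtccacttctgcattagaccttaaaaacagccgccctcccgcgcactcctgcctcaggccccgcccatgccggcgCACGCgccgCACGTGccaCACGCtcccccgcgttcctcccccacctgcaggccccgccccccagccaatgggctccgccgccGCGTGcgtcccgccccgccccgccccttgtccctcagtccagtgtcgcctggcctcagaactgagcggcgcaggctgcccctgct
Matches numbered 2 in the Slc2a1 window, 2 in the Hk2 window, 7 in the printed Ldha window and 5 in the Bnip3 window. Another Ldha window, at chr7:46846832-46847131, had 2 matches and is not printed. Both Ldha windows lie inside the gene span given below, which starts at 46841475. Of all 32851 promoter windows in the table, 43.8% held at least 1 match, and of the windows with at least 60% G and C, 69.2% did. Of the 16 windows of the 9 genes, 81.2% held a match, and each of the 9 genes had at least 1 such window. These letters are a description of the windows, and no factor binding was measured.

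Slc2a1, the glucose transporter of proliferating and barrier cells, lies on chromosome 4 at 119108711-119137983 on the plus strand (GRCm38) and overlaps the antisense gene Gm12868 in exons. Its level was 17.5 CPM (15 to 20.2) in albino and 20.2 CPM (17.2 to 23.5) in pigmented RGC-like cells, against 208 CPM (200 to 216) and 225 CPM (218 to 231) in RPC-like cells. In both libraries RGC-like cells thus stood far below the other 3 of the 4 classes. The ratio of RGC-like to RPC-like cells was 0.0841 (0.0719 to 0.0978) in the albino and 0.0897 (0.0763 to 0.105) in the pigmented library. CMZ-like cells had 121 CPM (113 to 130) in the albino and 136 CPM (130 to 142) in the pigmented library, and neurogenic-like cells had 127 CPM (119 to 135) and 155 CPM (149 to 162). From high to low the order was RPC-like, neurogenic-like, CMZ-like and RGC-like in both libraries; the intervals of the neurogenic-like and CMZ-like cells overlapped in the albino library and not in the pigmented one. Markers of endothelium, a cell type known for Slc2a1, were also lower in RGC-like than in RPC-like cells. The 8 summed to 7.45 CPM in albino and 8.54 CPM in pigmented RGC-like cells (3 at 0 in each), against 56.4 and 66.2 CPM in RPC-like cells (2 and 3 at 0). CMZ-like cells had 30.6 and 28.7 CPM of these markers, and neurogenic-like cells 28.6 and 30.3 CPM. The part of endothelium in the Slc2a1 difference was not tested.

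Slc2a3, the high-affinity transporter known from neurons, lies on chromosome 6 at 122727809-122801640 on the minus strand and was rare. A UMI of it was found in 110 of 3457 albino and 140 of 5737 pigmented cells, and 99 albino and 131 pigmented cells of these had a single UMI. The 3 cells with the most UMIs, of 79, 74 and 48, held 40.4% of all 497 UMIs, and they lay in albino CMZ-like, albino RGC-like and pigmented RPC-like cells. These cells weigh on the levels of their classes: CMZ-like cells had 21.8 CPM in the albino and 1.93 CPM in the pigmented library, RGC-like cells 9.86 and 2.35 CPM, and RPC-like cells 2.21 and 5.04 CPM. Without the top cell of each class and library, an alternative added after the data were seen, the ratio of albino to pigmented was 4.78 (2.86 to 8.21) in CMZ-like cells, 1.29 (0.68 to 2.5) in RGC-like cells and 0.754 (0.457 to 1.21) in RPC-like cells. The 79-UMI cell carried 1 UMI of the endothelial and 2 of the retinal pigment epithelium (RPE) markers, the 74-UMI cell 0 of either, and the 48-UMI cell 1 endothelial and 0 RPE marker UMIs; all 3 had 0 UMIs of the macrophage, erythroid, mesenchyme and lens markers. RPE-like cells had 30.7 CPM of Slc2a3 in the albino and 20.6 CPM in the pigmented library, and the part of other cell types in these 3 cells was not tested.

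**Figure D1:**
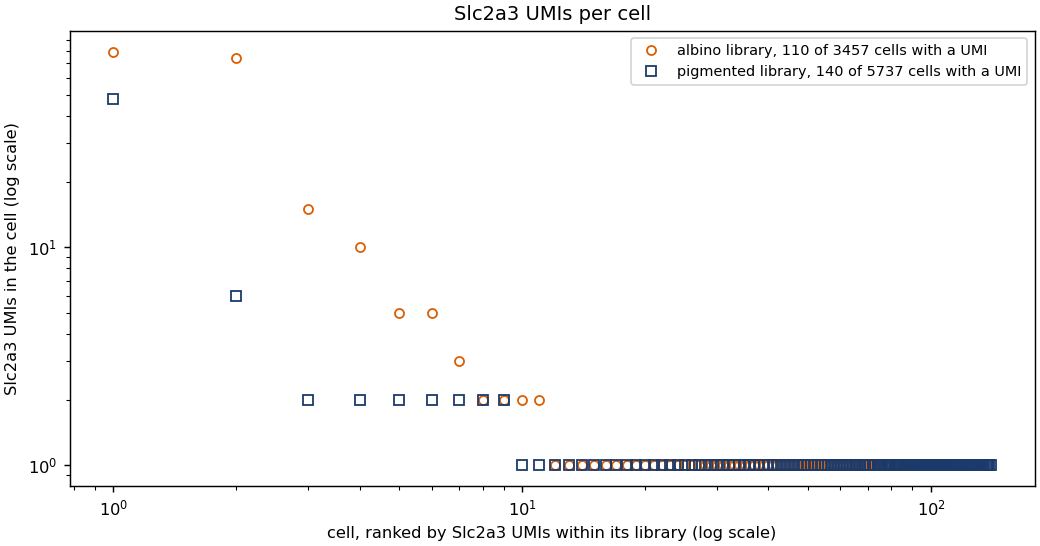
Slc2a3 UMIs per cell (vertical, log scale) against the rank of the cell within its library (horizontal, log scale), for the 110 albino and 140 pigmented cells with a UMI. The 2 leading albino cells, with 79 and 74 UMIs, and the leading pigmented cell, with 48, stand apart from the cells with 1 UMI.

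Hk2, the hexokinase that traps glucose inside the cell and is known to bind mitochondria, lies on chromosome 6 at 82725025-82774454 on the minus strand. RGC-like cells had 2.9 CPM on 30 UMIs in the albino and 2.1 CPM on 17 UMIs in the pigmented library, against 45.1 and 42.1 CPM in RPC-like cells. The ratio was 0.0643 (0.043 to 0.0929) in the albino and 0.0499 (0.029 to 0.0804) in the pigmented library, and the class intervals were far apart. CMZ-like cells had 33.4 CPM in the albino and 29.4 CPM in the pigmented library, a ratio to RPC-like cells of 0.74 (0.625 to 0.872) and 0.697 (0.617 to 0.787). Neurogenic-like cells were nearer to RPC-like cells, at ratios of 0.814 (0.703 to 0.942) and 0.913 (0.817 to 1.02), and the second of these intervals includes 1.

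The enzymes of the lower chain did not move as one. Aldoa, the aldolase that splits the sugar of the pathway, lies on chromosome 7 at 126795234-126800751 on the minus strand. It was higher in RGC-like cells, at 576 CPM in the albino and 525 CPM in the pigmented library against 363 and 336 CPM in RPC-like cells, a ratio of 1.58 (1.52 to 1.65) and 1.56 (1.51 to 1.62). Its ratio in CMZ-like over RPC-like cells was 0.75 in the albino and 0.782 in the pigmented library. A second row of the files also bears the name Aldoa, with 3 albino and 7 pigmented UMIs over all cells, and was left aside; the main row overlaps Fam57b on the other strand.

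Pgk1, the enzyme of the first ATP-yielding step, lies on chromosome X at 106187100-106203699 on the plus strand. Of the 4 classes it was lowest in CMZ-like cells, at 200 CPM (188 to 211) in the albino and 179 CPM (171 to 186) in the pigmented library, against 294 and 281 CPM in RPC-like cells. RGC-like cells had 270 and 237 CPM, and neurogenic-like cells 272 and 260 CPM, none past the fold from RPC-like cells.

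Eno1, the enolase of the step before the last, lies on chromosome 4 at 150236721-150248879 on the plus strand. It was lower in both differentiating classes. RGC-like cells had 324 CPM in the albino and 265 CPM in the pigmented library, and neurogenic-like cells 374 and 364 CPM, against 719 and 664 CPM in RPC-like cells. The ratio of RGC-like to RPC-like cells was 0.45 (0.433 to 0.469) and 0.399 (0.381 to 0.417). CMZ-like cells, at 693 and 707 CPM, were not past the fold from RPC-like cells, with ratios of 0.964 (0.928 to 1) and 1.07 (1.04 to 1.09). The near-identical copy Eno1b, whose reads cannot be separated with certainty, had 1.17% and 1.44% of the summed UMIs in RPC-like cells, and the sum of both gave RGC-like to RPC-like ratios of 0.45 and 0.398.

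Pkm, the pyruvate kinase of the last step, whose splice forms these 3′ counts do not separate, lies on chromosome 9 at 59656368-59679375 on the plus strand. It was higher in both differentiating classes. Neurogenic-like cells had 859 CPM in the albino and 844 CPM in the pigmented library, and RGC-like cells 827 and 816 CPM, against 682 and 643 CPM in RPC-like cells. The neurogenic-like ratios were 1.26 (1.22 to 1.3) and 1.31 (1.28 to 1.34), and the RGC-like ratios 1.21 and 1.27, with both intervals above 1. CMZ-like cells had the lowest level of the 4 classes, 504 and 515 CPM.

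Ldha, which turns pyruvate into lactate, lies on chromosome 7 at 46841475-46855627 on the plus strand. Of the 4 classes it was highest in RPC-like cells in both libraries. CMZ-like cells had 471 CPM in the albino and 430 CPM in the pigmented library, neurogenic-like cells 652 and 629 CPM, and RGC-like cells 604 and 532 CPM, against 915 and 842 CPM in RPC-like cells. The CMZ-like ratios, 0.515 (0.493 to 0.536) and 0.511 (0.496 to 0.527), were the lowest of the 3 classes. Annotated pseudogenes that match the last 500 bases of a gene's transcript (at least 95% identity over at least 100 bases) number 6 for Ldha, 5 for Pkm, 3 for Bnip3, 3 for Eno1 and 1 for Aldoa, and reads may be split between them and the genes.

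Pdk1, the kinase that inhibits pyruvate dehydrogenase, lies on chromosome 2 at 71873224-71903858 on the plus strand. It was read on few UMIs. Neurogenic-like cells had 12.8 CPM on 98 UMIs in the albino and 11.7 CPM on 150 UMIs in the pigmented library, against 21.2 and 18.3 CPM in RPC-like cells, a ratio of 0.603 (0.473 to 0.763) and 0.641 (0.527 to 0.775). RGC-like cells had 19.5 and 15.5 CPM, and the intervals of their ratios to RPC-like cells, 0.761 to 1.11 and 0.685 to 1.04, include 1.

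Bnip3, a mitochondrial protein of hypoxia-driven mitophagy, had its highest level of the 4 classes in RGC-like cells. It lies on chromosome 7 at 138890836-138909519 on the minus strand and overlaps the antisense gene Gm45507. RGC-like cells had 82.7 CPM in the albino and 65.7 CPM in the pigmented library, against 41.3 and 31.7 CPM in RPC-like cells, a ratio of 2 (1.79 to 2.24) and 2.07 (1.85 to 2.32). Neurogenic-like cells had 46.4 and 43.2 CPM, with ratios of 1.12 (0.977 to 1.29) and 1.36 (1.22 to 1.53), and CMZ-like cells 22 and 24.6 CPM, with ratios of 0.533 (0.436 to 0.647) and 0.775 (0.676 to 0.886).

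**Figure D2:**
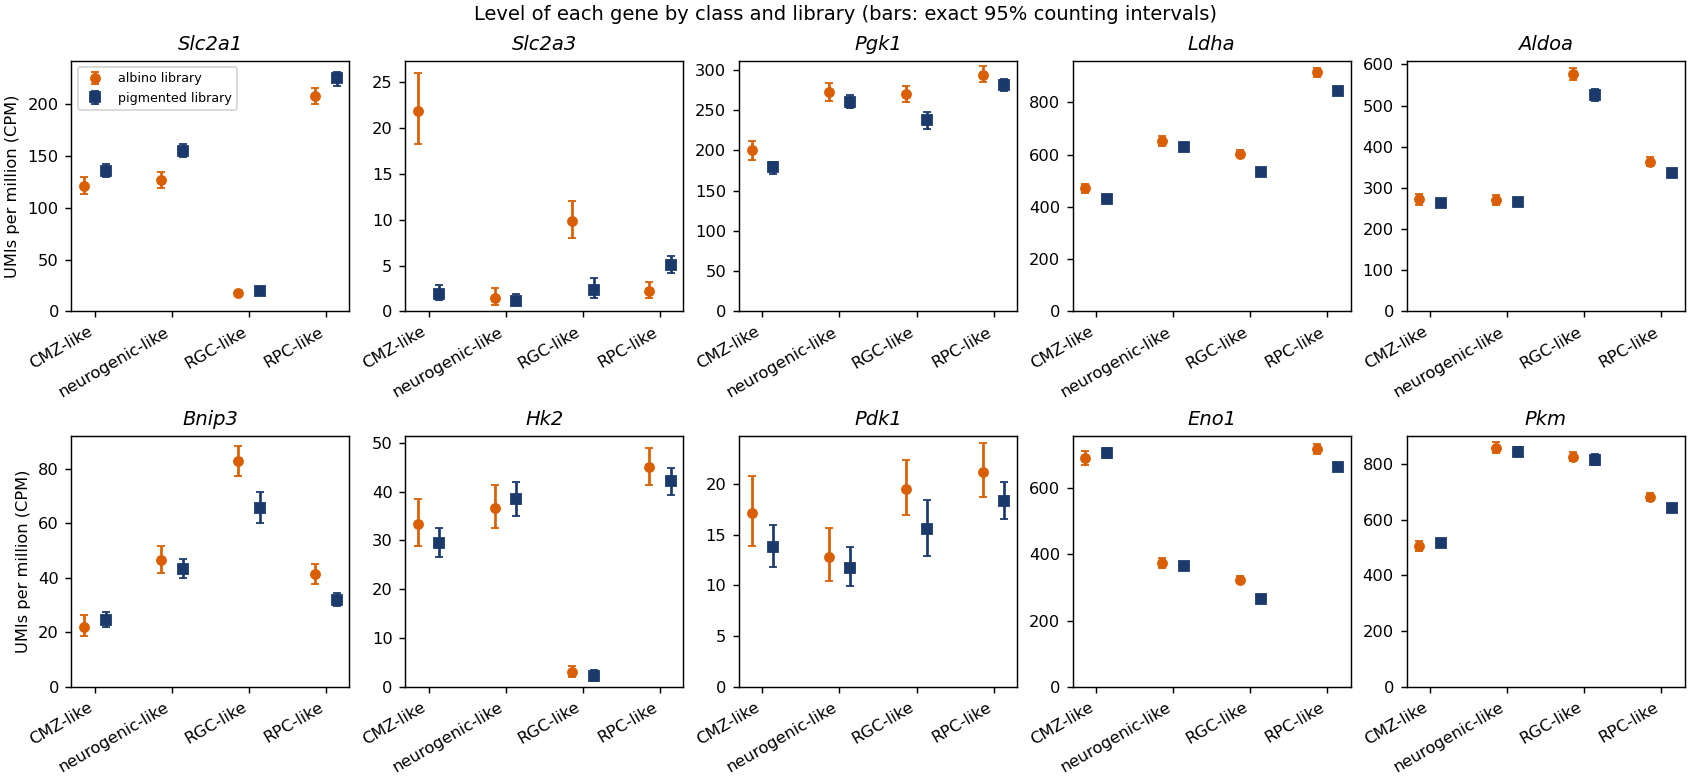
Level of each of the 10 genes in CPM (vertical, each panel from 0) by class (horizontal), with albino points left of pigmented points and bars for exact 95% counting intervals. Slc2a1 and Hk2 are near 0 in RGC-like cells, at 17.5 and 20.2 CPM and at 2.9 and 2.1 CPM, while Bnip3 and Aldoa are higher there than in the other 3 classes.

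Counted over the 10 genes, CMZ-like cells were past the fold from RPC-like cells in both libraries upward for 0 genes (5.86% of all genes compared) and downward for 6 genes (10.8%). The 6 were Slc2a1, Pgk1, Ldha, Aldoa, Bnip3 and Hk2. Neurogenic-like cells were past it in both libraries upward for 1 gene, Pkm (17.6%). That count became 0 in both libraries with a stricter naming margin, a higher resolution or clustering without cell cycle genes. They were past it downward for 6 genes (23.9%), Slc2a1, Slc2a3, Ldha, Aldoa, Pdk1 and Eno1. The albino Slc2a3 ratio rests on 11 UMIs against 27, short of the UMI minimum behind the 23.9%. Its interval, 0.292 to 1.36, includes 1. Neurogenic-like cells also carried RGC markers, at 2017 CPM in the albino and 1882 CPM in the pigmented library, whose part was not tested. RGC-like cells were past it in both libraries upward for 2 genes, Aldoa and Bnip3 (29.4%), and downward for 4 genes, Slc2a1, Hk2, Ldha and Eno1 (37.8%). Read by library, CMZ-like cells had 1 gene higher and 7 lower in the albino library, with a background of 10.4% and 15.1%, and 0 higher and 8 lower in the pigmented library, with 11.1% and 19.4%. Neurogenic-like cells had 1 higher and 6 lower in the albino library (22.7% and 28.5%), and 2 higher and 6 lower in the pigmented library (20.3% and 30.7%). The albino 6 include Slc2a3, which is below the UMI minimum behind the 28.5%. With a minimum of 20 UMIs that share was 33.6%. RGC-like cells had 3 higher and 4 lower in the albino library (33.1% and 40.2%), and 3 higher and 5 lower in the pigmented library (30.4% and 43.7%). The median log2 ratio over the 10 genes was -0.44 and -0.47 in CMZ-like, -0.46 and -0.38 in neurogenic-like, and -0.12 and -0.45 in RGC-like cells, against -0.02 and -0.06, -0.03 and -0.07, and -0.09 and -0.17 over all genes compared. In RGC-like cells the counts are near those of all genes.

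**Figure D3:**
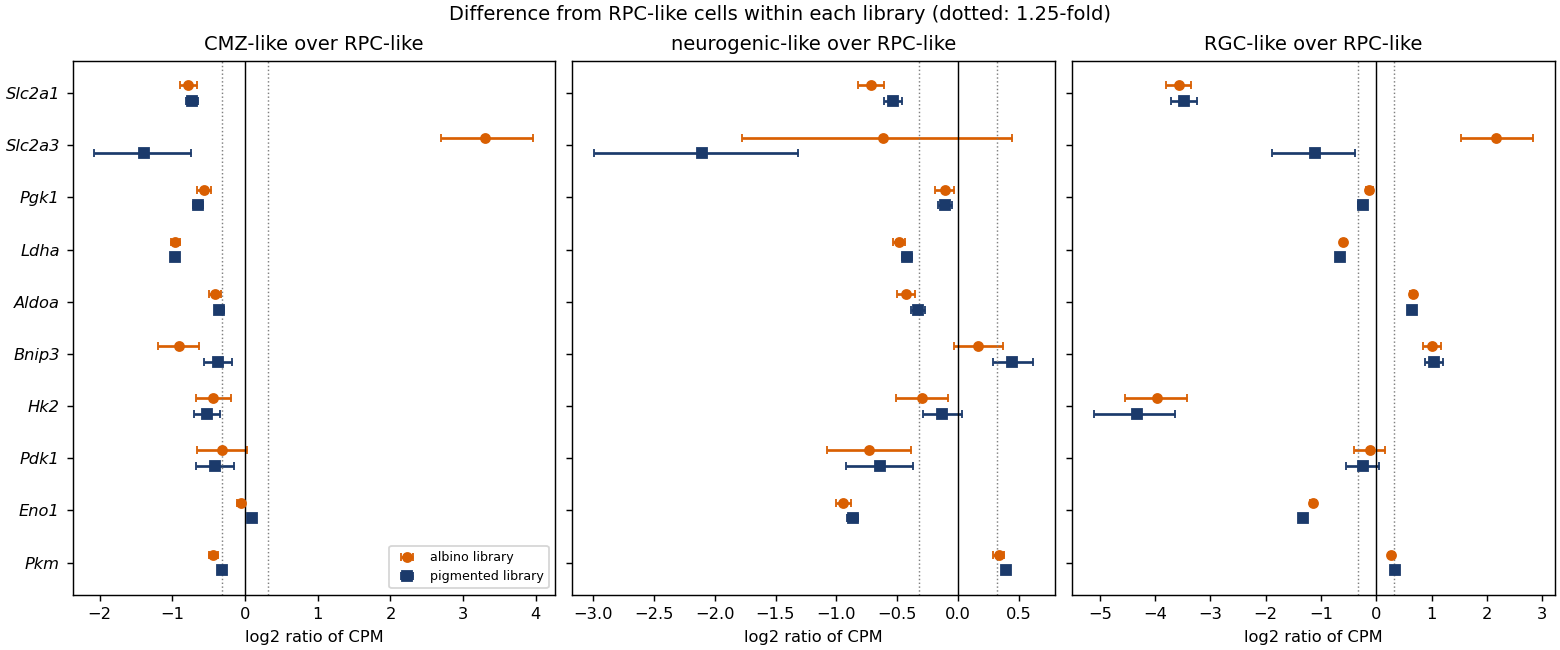
Log2 ratio of the level in CMZ-like, neurogenic-like and RGC-like cells to that in RPC-like cells (horizontal, each panel with its own range) for each gene (vertical), with albino above pigmented and bars for 95% counting intervals. In RGC-like cells Slc2a1 lies at -3.57 and -3.48 and Hk2 at -3.96 and -4.32, and Slc2a3 lies past the fold in opposite directions in the 2 libraries in CMZ-like and RGC-like cells.

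Between the libraries, the median log2 ratio of albino to pigmented over the 10 genes was 0.09 in CMZ-like, 0.04 in neurogenic-like, 0.24 in RGC-like and 0.11 in RPC-like cells, against 0, -0.02, -0.01 and -0.04 over all genes compared. In CMZ-like cells 1 gene, Slc2a3, was past the fold upward in albino over pigmented (6.06% of all genes) and 0 downward (6.27%). Neurogenic-like cells had 0 upward (3.04%) and 0 downward (5.77%). In RGC-like cells 4 were past it upward (3.8%), Slc2a3, Bnip3, Hk2 and Pdk1, and 0 downward (5.09%). Hk2, on 30 albino and 17 pigmented UMIs there, fell short of the UMI minimum behind the 3.8%. With a minimum of 20 UMIs the share of all genes was 8.35% upward and 10.4% downward. The Hk2 ratio of 1.38 has an interval of 0.737 to 2.67, and its log2 value turned to -0.52 with doublets kept. Clustered without cell cycle genes, 1 gene was past the fold upward in RGC-like cells. RPC-like cells had 1 upward, Bnip3 (2.4%), and 1 downward, Slc2a3 (4.79%).

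Bnip3 was 1.26 times as high (1.13 to 1.41) in albino as in pigmented RGC-like cells and 1.30 times (1.16 to 1.46) in RPC-like cells, while its intervals in CMZ-like cells, 0.725 to 1.1, and neurogenic-like cells, 0.936 to 1.23, include 1. Its albino level was the higher one in both RGC-like clusters, at 83.7 CPM in albino against 66.2 CPM in pigmented cells of the cluster led by Ccer2 and 81.5 against 65 CPM in the one led by Sst, and in all 4 RPC-like clusters, at ratios of 1.15 to 1.43. The intervals of the RPC-like clusters led by Ung, 0.991 to 1.46, and Hist1h2bc, 0.842 to 1.55, include 1. Eno1 in RGC-like cells, at 1.22 (1.16 to 1.29), came close to the fold, and the interval of Pdk1 there, 1.01 to 1.59, only just excludes 1.

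Slc2a1 was below 1 in each class, at 0.892 (0.817 to 0.973) in CMZ-like, 0.817 (0.756 to 0.882) in neurogenic-like, 0.926 (0.882 to 0.972) in RPC-like and 0.868 (0.698 to 1.08) in RGC-like cells. In the neurogenic-like class the cluster led by Gal and Dlx1 had 116 CPM in albino and 169 CPM in pigmented cells, a ratio of 0.69 (0.61 to 0.778), and the intervals of the other 4 neurogenic-like clusters include 1, at ratios of 0.64 (0.349 to 1.12, on 17 and 56 UMIs) in the cluster led by Onecut1 to 0.98. The intervals of all 3 CMZ-like clusters include 1 too, as do those of both RGC-like clusters, at 0.776 (0.591 to 1.02) in the one led by Ccer2 and 1.15 (0.78 to 1.7) in the one led by Sst. The 4 RPC-like clusters had ratios of 0.876 to 0.929. Of these, the clusters led by Ung, 0.832 to 0.976, and Ube2c, 0.776 to 0.986, had intervals below 1, and the other 2 intervals include 1.

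Over all kept cells 2 genes were past the fold upward, Slc2a3 and Bnip3 (7.9% of all genes), and 1 downward, Slc2a1 (8.05%). Slc2a1 had 111 CPM in albino and 145 CPM in pigmented cells, a ratio of 0.768 (0.742 to 0.794), and Bnip3 had 51.8 and 37.6 CPM, a ratio of 1.38 (1.3 to 1.46). RGC-like cells, low in Slc2a1 and high in Bnip3, were 19.9% of albino and 9.66% of pigmented cells. With the albino classes weighted by the pigmented class shares, the ratio was 0.895 for Slc2a1 and 1.16 for Bnip3, neither past the fold. For Slc2a3 it was 2.29, against 2.21 unweighted, and stayed past the fold.

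**Figure D4:**
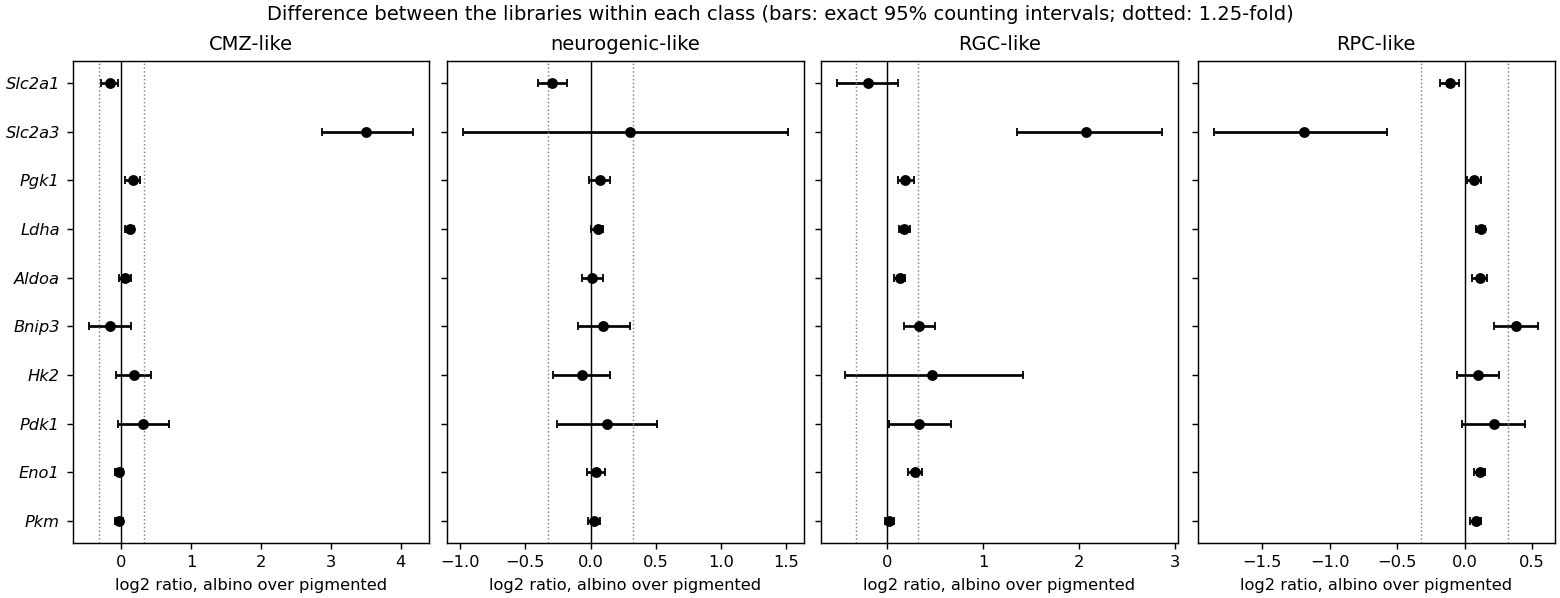
Log2 ratio of albino to pigmented level (horizontal, each panel with its own range) for each gene (vertical) in the 4 classes, with bars for 95% counting intervals and dotted lines at the fold. Apart from Slc2a3, the points lie between -0.29 and 0.46.

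For Pgk1, which is X-linked, levels were also read in cells with Xist and no Y-linked UMI, a choice that also selects embryos. Its level in such RPC-like cells was 293 CPM (283 to 303) in the albino and 268 CPM (256 to 281) in the pigmented library, and pigmented RPC-like cells with a Y-linked UMI had 282 CPM (272 to 293). Such neurogenic-like cells had 273 CPM (261 to 285) and 233 CPM (218 to 250), while the ratio in all neurogenic-like cells was 1.05 (0.99 to 1.11). Such RGC-like cells had 270 CPM (260 to 280) and 228 CPM (211 to 247). Intervals overlapped in such CMZ-like cells, at 199 CPM (187 to 210) and 178 CPM (165 to 191). Pigmented cells with a Y-linked UMI had 265 CPM (253 to 278) in the neurogenic-like class. They had 234 CPM (219 to 249) in the RGC-like and 181 CPM (171 to 191) in the CMZ-like class. In the neurogenic-like class that interval lies above the one of pigmented cells with Xist and no Y-linked UMI. The parts of sex and embryo were not tested.

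Levels also differed between the clusters of a class. Among neurogenic-like cells, the cluster led by Onecut1 and holding Otx2 had 23.7 CPM of Slc2a1 in albino and 37.1 CPM in pigmented cells, while the cluster led by Cck and Gadd45g had 279 and 285 CPM. That Cck-led cluster also had the highest neurogenic-like Eno1, 723 and 617 CPM, and Hk2, 83.9 and 61.2 CPM, though its Hk2 values rest on 37 and 57 UMIs. Among neurogenic-like clusters Pkm was highest in the one led by Gal and Dlx1, at 985 CPM in albino and 967 CPM in pigmented cells, against 732 and 745 CPM in the cluster led by Neurog2.

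RPC-like clusters led by different cell cycle genes differed too. Hk2 was 28 CPM in albino and 27.9 CPM in pigmented cells of the cluster led by the mitotic gene Ube2c, and 64.6 and 58.7 CPM in the cluster led by Ung. Bnip3 had 37.8 and 26.5 CPM in the Ube2c-led cluster and 48.2 and 40 CPM in the Ung-led one. Among CMZ-like cells, Slc2a1 was 180 and 183 CPM in the cluster led by Aldh1a1, against 101 and 112 CPM and 94.4 and 96.8 CPM in the clusters led by Wfdc1 and Gja1.

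**Figure D5:**
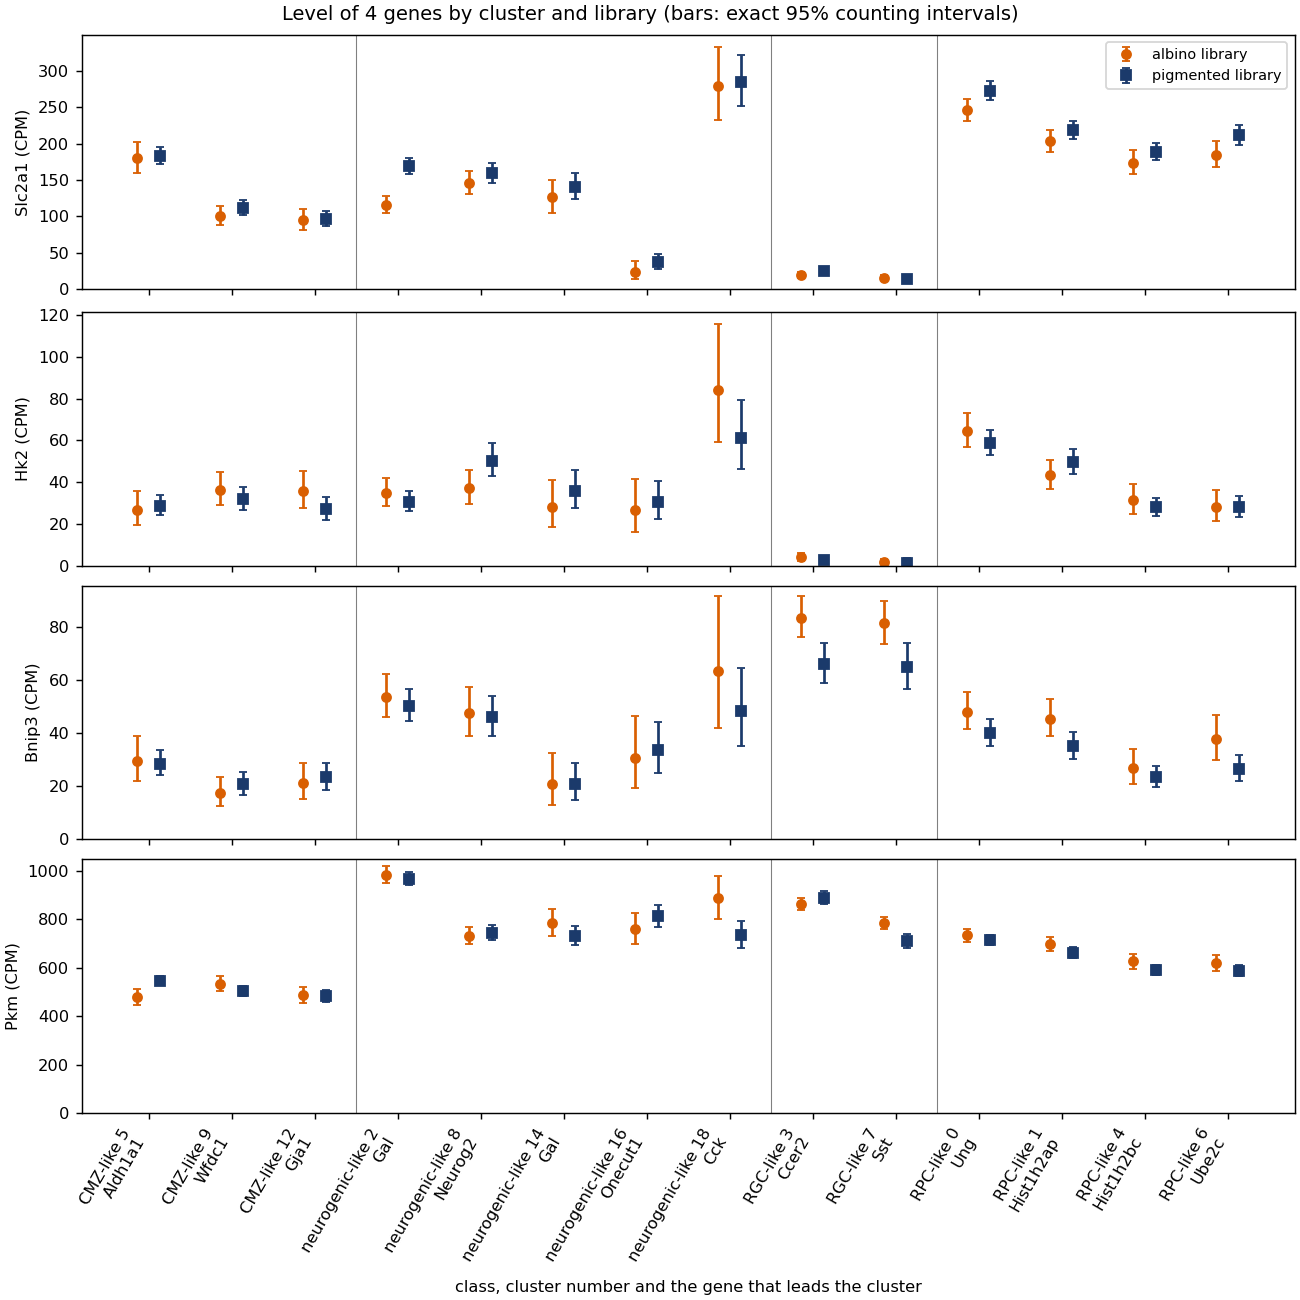
Level of Slc2a1, Hk2, Bnip3 and Pkm in CPM (vertical, from 0) in each cluster (horizontal, with the gene that leads it), albino left of pigmented, with bars for 95% counting intervals. The neurogenic-like cluster led by Onecut1 has 23.7 and 37.1 CPM of Slc2a1 and the one led by Cck 279 and 285 CPM.

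The class differences were also seen in shares of cells. RGC-like cells had a higher median depth, 14478 UMIs in albino and 14261 in pigmented cells, than RPC-like cells, 10329 and 9720 UMIs, so each cell was thinned to 5800 UMIs, leaving out 387 albino and 549 pigmented cells that were shallower. A Slc2a1 UMI was then found in 11.5% of albino and 10.2% of pigmented RGC-like cells (21.3% and 22.2% unthinned), against 66.2% and 69.1% of RPC-like cells (82.8% and 84.7%). For Hk2 the shares were 1.38% and 1.11% of RGC-like cells (3.93% and 2.53%), against 23.2% and 20.6% of RPC-like cells (36.1% and 32.5%). Bnip3 was found in 32.9% and 30.4% of RGC-like cells (57.5% and 53.1%), against 19.4% and 17% of RPC-like cells (32% and 25.1%). No class was used to set the level of free RNA, whose part in the low RGC-like shares was not tested. Slc2a1 was also low in macrophage- or microglia-like cells, at 17.5 CPM in albino and 13.2 CPM in pigmented cells, on 5 and 3 UMIs. Mesenchyme-like cells had 13.2 CPM of it in the albino and 34.3 CPM in the pigmented library.

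Across thinned cells of 1 class and library the 45 pairs of genes were weakly correlated, with medians of 0.02 to 0.08. Low counts limit these values: Slc2a3 was found in at most 2.54% of the thinned cells of any of the 4 classes. Hk2 was found in 1.38% of albino and 1.11% of pigmented RGC-like cells. The pair with the highest value was Ldha and Aldoa in RGC-like cells, at 0.43 in the albino and 0.44 in the pigmented library. The cells of a pair share a library, so these are descriptions.

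Over the 10 named classes in both libraries (20 points, log2 of CPM plus 10), Slc2a1 was most like Car14 (Pearson r = 0.908), Lhx2 (0.906), which is also a naming marker of RPC-like cells, and Stx3 (0.888). Hk2 was most like Snx5 (0.956), Adam17 (0.936) and Akip1 (0.932). Its points include macrophage- or microglia-like cells, at 273 CPM in albino and 185 CPM in pigmented cells, whose weight on these values was not tested. Aldoa was most like Gpi1 (0.893), the isomerase of the second glycolytic step, and Pgk1 and Ldha were both most like Pgam1 (0.869 and 0.846), the mutase between Pgk1 and Eno1. Bnip3 was most like Srp14 (0.857), Pkm like Smim20 (0.864), Pdk1 like Orai3 (0.903), Eno1 like Defb11 (0.862) and Slc2a3 like Pnpla6 (0.807). Most Slc2a3 points lie under 10 CPM, and some of the higher ones rest on single cells. Its RPE-like points rest on 9 UMIs in each library. The weight of these points on the Slc2a3 value was not tested. The partners were picked as the highest of the genes compared, and the points share 2 libraries and their depth.

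The rest of the pathway was read through lists of 61 further genes. Of the 13 other glycolytic enzymes, 9 had at least 50 UMIs in neurogenic-like and RPC-like cells, and in neurogenic-like cells 0 were past the fold upward and 9 in the albino and 7 in the pigmented library downward, with a median log2 ratio of -0.71 and -0.68, against 22.7% and 20.3% of all genes upward and 28.5% and 30.7% downward. Gapdh was among them, at 1113 and 1162 CPM against 1675 and 1726 CPM in RPC-like cells. In RGC-like cells 2 albino and 3 pigmented enzymes of 9 were higher and 3 and 4 lower, against 33.1% and 30.4% of all genes higher and 40.2% and 43.7% lower, so these counts are near the background. A hexokinase and a phosphofructokinase were higher there, in a choice made after their values were seen: Hk1, the hexokinase common in neurons, had 32.7 CPM in albino and 26.2 CPM in pigmented RGC-like cells, against 8.66 and 9.89 CPM in RPC-like cells, a ratio of 3.77 (3.03 to 4.74) and 2.65 (2.18 to 3.22). Pfkp, a phosphofructokinase, had 65.4 and 61.7 CPM against 3.27 and 2.4 CPM, a ratio of 20 (14.5 to 28.3) and 25.7 (19.3 to 34.9).

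Of the 12 genes of pyruvate and lactate handling, 11 were measured in RGC-like and RPC-like cells, and 7 albino and 6 pigmented were higher in RGC-like cells and 3 in each library lower, beside the same 33.1% and 30.4% of all genes higher and 40.2% and 43.7% lower. Ldhb, the partner of Ldha that favours lactate use, had 541 CPM in albino and 507 CPM in pigmented RGC-like cells against 227 and 223 CPM in RPC-like cells. Mpc1, a subunit of the carrier that takes pyruvate into mitochondria, had 219 and 213 CPM against 66.2 and 66.8 CPM. Of the monocarboxylate transporters, Slc16a7 had a ratio of 6.68 (3.97 to 11.9) and 7.71 (4.83 to 12.7), and Slc16a1 a ratio of 0.14 (0.0876 to 0.214) and 0.11 (0.0635 to 0.179). Slc16a3, in CMZ-like over RPC-like cells, had a ratio of 0.401 (0.307 to 0.518) and 0.381 (0.313 to 0.462). Ldhb, Mpc1 and Slc16a3 were chosen after their values were seen.

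Of the 16 other HIF targets 14 were measured in RGC-like and RPC-like cells, and 7 in each library were higher in RGC-like cells and 5 albino and 6 pigmented lower, beside 33.1% and 30.4% of all genes higher and 40.2% and 43.7% lower; the lower counts are near the background. Ankrd37 had 54.1 CPM in albino and 49.6 CPM in pigmented RGC-like cells against 24.5 and 23.2 CPM in RPC-like cells. Vegfa, the vessel growth factor, had 22.3 and 16.8 CPM against 37.8 and 34.3 CPM, and Ak4, a mitochondrial adenylate kinase, had 12 UMIs in albino and 2 UMIs in pigmented RGC-like cells against 111 and 202 UMIs in RPC-like cells, a ratio of 0.128 (0.0642 to 0.233) and 0.0265 (0.00319 to 0.0969). Hif1a, the oxygen-regulated subunit, had 201 and 180 CPM against 185 and 187 CPM, not past the fold. Vegfa and Hif1a were chosen after their values were seen. Over all cells, among genes with at least 50 UMIs, the highest and lowest albino to pigmented ratios of each list were 1.90 (1.32 to 2.74) for Aldoc and 0.770 (0.703 to 0.843) for Eno3, 1.57 for Slc16a7 and 0.701 for Slc16a1, 1.35 for Pfkfb3 and 0.852 for Slc2a4, 1.14 for Arnt2 and 0.739 for Hif3a, and 1.28 for Ankrd37 and 0.901 for Ak4. None of the 61 genes had an interval on the same side of 1 in all 4 classes.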

How the data were processed

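The authors deposited raw UMI counts per gene and barcode for 1 albino and 1 pigmented library. Per the submitters' processing notes these came from Cell Ranger 2.1.1 and mm10, while the matrix headers name version 5.0.1. Barcodes under 500 genes or over 10% mitochondrial UMIs were dropped, as were doublets with a Scrublet score over 0.25 (56 albino, 146 pigmented), since Scrublet's own threshold called 4 albino cells. Both libraries were clustered together (Scanpy 1.11.5, 2000 genes, 30 components, 15 neighbours, Leiden resolution 1.0) without the genes described here, the 61 listed genes and Ccnd2. The plan also left the outcome lists of an earlier analysis out of the clustering. Those lists were not available, so their genes could enter it. Of 24 clusters, 21 were named from marker lists. UMIs were summed per class and library and given as CPM; with 1 library per group there is no test. Background shares use genes with at least 100 UMIs, and counts over the 10 genes use no minimum. All 10 genes are named; from each other list, those with the highest and lowest albino to pigmented ratio among genes with at least 50 UMIs. Members and lists were chosen with earlier results of these data known. The ratio code was tested on simulated data.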

Additional observations from a re-analysis of the deposited data

Results flagged for a closer look

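For Slc2a3 the 2 libraries pointed in opposite directions in the same class contrast. The ratio of CMZ-like to RPC-like cells was 9.9 in the albino and 0.383 in the pigmented library, and the ratio of RGC-like to RPC-like cells was 4.47 in the albino and 0.466 in the pigmented library. The difference between the libraries was not tested, since there is 1 library per group. Single cells hold 61.2% of the Slc2a3 UMIs of albino CMZ-like cells, 72.5% of those of albino RGC-like cells and 44% of those of pigmented RPC-like cells. Without the top cell of each class and library, the CMZ-like ratios were 4 (2.44 to 6.69) in the albino and 0.63 (0.372 to 1.03) in the pigmented library, and the RGC-like ratios 1.27 (0.72 to 2.26) and 0.747 (0.409 to 1.3). The albino CMZ-like ratio still rests on few cells, with 15 and 10 of its 50 UMIs in the next cells.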

How the results depend on the processing

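No paired analysis was possible because each group has 1 library. Of the 352 counts recomputed under other settings, 303 stayed within 1.5 times of the reported count, and the causes of the other 49 were not tested. In neurogenic-like over RPC-like cells, the count of higher genes became 0 in both libraries with a naming margin of 0.5, resolution 1.5, clustering without cell cycle genes or a fold of 1.5. It became 0 albino and 1 pigmented with at most 5% mitochondrial UMIs or scaling without mitochondrial, ribosomal protein and haemoglobin genes, 0 albino with doublets kept or Scrublet's own threshold, and 2 albino at a fold of 1.1. In albino over pigmented neurogenic-like cells, 1 gene became higher under the first 3 of these settings, with doublets kept, without top cells and at a fold of 1.1, where 1 was lower. At resolution 0.7, 1 gene was lower in albino CMZ-like cells, 2 were higher in albino RPC-like cells, and 5 were lower in pigmented CMZ-like than RPC-like cells. Clustering without cell cycle genes gave 1 higher in RGC-like and 2 in RPC-like cells, and 1000 genes per cell gave 2 in RPC-like cells. Doublets kept gave 2 lower in RGC-like cells, and equal weights of cells 2 higher in CMZ-like cells. In cells with Xist and no Y-linked UMI, albino over pigmented counts were 2 higher in CMZ-like, 3 higher and 1 lower in neurogenic-like, 2 higher and 0 lower in RPC-like and 4 higher in all cells. A fold of 1.1 gave 4 higher and 2 lower in CMZ-like, 7 higher and 1 lower in RGC-like, 2 higher in RPC-like and 7 higher in all cells. A fold of 1.5 gave 1 higher in RGC-like, 0 in RPC-like, and 1 higher and 0 lower in all cells; against RPC-like cells it gave 3 albino and 4 pigmented lower in CMZ-like and 3 pigmented lower in neurogenic-like cells. The log2 ratio reversed for Pdk1 in pigmented CMZ-like over RPC-like cells at resolution 0.7 (0.1), for Hk2 in albino over pigmented RGC-like cells with doublets kept (-0.52) and for Slc2a3 in albino over pigmented RPC-like cells with Xist and no Y-linked UMI (0.09). Depth limits Hk2 in RGC-like cells and Pdk1, and single cells limit Slc2a3.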

Other observations

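Small classes outside the 4 compared also differed in these genes. Macrophage- or microglia-like cells, of which there were 29 albino and 26 pigmented, had 273 CPM (216 to 341) and 185 CPM (133 to 250) of Hk2. Retinal pigment epithelium-like cells, 16 albino and 45 pigmented, had 382 CPM (315 to 460) and 313 CPM (263 to 370) of Slc2a1; 1 albino cell held 50% of that class's albino Slc2a1 UMIs. Photoreceptor precursor-like cells had 25.1 CPM (18.3 to 33.6) of Slc2a1 in the albino and 39.2 CPM (32.5 to 47) in the pigmented library, and 962 CPM (917 to 1008) and 1005 CPM (969 to 1041) of Pkm. Surface ectoderm-like cells, 85 albino and 29 pigmented, had 1505 CPM (1464 to 1547) and 935 CPM (845 to 1032) of Ldha. Of the other listed genes, Eno3, the muscle enolase, had 48.4 CPM in albino and 58.6 CPM in pigmented CMZ-like cells against 15.4 and 14.2 CPM in RPC-like cells, and Egln3, a HIF prolyl hydroxylase, had 5.76 and 5.87 CPM against 2.7 and 1.9 CPM. Ddit4, a stress-induced inhibitor of growth signalling, had 17.8 CPM in albino and 16.8 CPM in pigmented neurogenic-like cells against 7.68 and 5.36 CPM in RPC-like cells. The genes in this paragraph were chosen after their values were seen.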
